A study of Homo sapiens with 42 samples.

Results

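Of the 33914 chromatin loops in the deposited table of loop contacts, 415 lie on chromosome 18, 1.22% of all, and they are the loops described here. They were chosen by position alone, but the chromosome was picked because its loops were seen to lose contacts at 72 h in the same libraries although the chromosome carries few genes. The 72 h against 0 h values are therefore a description with no test. The contacts were measured by in situ Hi-C in K562, an established human leukaemia cell line (genotype WT in every group), grown in RPMI with fetal bovine serum and treated with 25 nM PMA. The groups are PMA for 0 h (the untreated start), 6 h and 72 h, and the treatment is one that drives the line towards a megakaryocyte-like state. Each time holds 4 biological replicates and 14 sequenced samples, because replicates 1 and 2 were split into 3 technical replicates each and replicates 3 and 4 into 2 technical replicates sequenced in 2 runs. The technical replicates and runs were added up, which gives 12 libraries. The labels name 1 cell line and do not say that replicates came from separate cultures, so p-values measure only the spread between these libraries. Hi-C holds no RNA, and the identity of the cells was not checked against marker genes.

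A chromatin loop is a pair of distant DNA sites, its anchors, that touch more often than their neighbourhood does. Most loops in human cells form when the ring-shaped cohesin complex extrudes DNA until it meets the insulator protein CTCF bound at both anchors, and some join promoters to enhancers. PMA is a phorbol ester that activates protein kinase C, and K562 cells exposed to it stop dividing, grow and take on megakaryocyte features. Chromosome 18 is a gene-poor human chromosome that tends to sit near the edge of the nucleus. It carries NPC1 (the lysosomal cholesterol transporter mutated in Niemann-Pick disease type C), BCL2 (an inhibitor of apoptosis), SMAD2, SMAD4 and SMAD7 (TGF-beta signalling), the SERPINB protease inhibitor cluster and the desmosomal cadherins.

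The anchors are 10 kb bins whose full sequence was not used here, and the sequences shown come from 79 promoter windows of protein-coding genes that start inside an anchor. RefSeq gave a window for 234 of the 270 protein-coding genes of the chromosome (assembly GRCh38.p14, the build of the deposited positions). A window has 300 bases, from 250 before to 50 after the gene's start. Motif letters were searched on both strands: TGANTCA for AP-1, the factor pair induced by phorbol esters, AGATAA for GATA factors, which govern erythroid and megakaryocyte genes, and CCGGAAG for ETS factors. In TGANTCA the N matched any base, so TGAATCA and TGATTCA also counted, although the usual AP-1 site has C or G there. The AP-1 shares below are of this looser form, and 1 of the 2 SERPINB8 matches is TGAATCA. The 3 motifs share no letters in the windows printed here. AP-1 letters were in 7 of the 79 anchor windows (8.86%), in 8.49% of all 365 chromosome 18 windows and in 6.15% of all 22199 windows. GATA letters were in 2.53%, 7.67% and 7.91%, and ETS letters in 8.86%, 8.77% and 12.8%. The windows below belong to the loops described most closely: NPC1 and SKA1, whose loops lost contacts, MYL12A, whose anchor 2 loops share, and SERPINB8, whose loop was not called at any time. Each is written 5′ to 3′ on the gene's own strand, with motif letters in capitals.
NPC1 (chr18:23586457-23586756, minus strand, no motif letters): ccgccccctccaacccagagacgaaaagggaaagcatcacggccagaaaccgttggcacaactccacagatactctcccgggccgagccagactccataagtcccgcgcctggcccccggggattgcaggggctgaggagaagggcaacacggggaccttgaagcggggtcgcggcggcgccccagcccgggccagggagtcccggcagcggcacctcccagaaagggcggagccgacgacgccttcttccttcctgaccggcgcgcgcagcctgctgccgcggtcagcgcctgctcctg
SKA1 (chr18:50374796-50375095, plus strand, 1 ETS match): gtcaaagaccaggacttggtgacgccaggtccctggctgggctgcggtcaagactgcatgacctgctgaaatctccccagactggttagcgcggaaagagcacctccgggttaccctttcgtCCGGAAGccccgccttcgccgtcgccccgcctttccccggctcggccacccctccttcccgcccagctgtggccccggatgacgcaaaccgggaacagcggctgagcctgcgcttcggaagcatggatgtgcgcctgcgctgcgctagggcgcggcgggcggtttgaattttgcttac
MYL12A (chr18:3247551-3247850, plus strand, 2 ETS matches): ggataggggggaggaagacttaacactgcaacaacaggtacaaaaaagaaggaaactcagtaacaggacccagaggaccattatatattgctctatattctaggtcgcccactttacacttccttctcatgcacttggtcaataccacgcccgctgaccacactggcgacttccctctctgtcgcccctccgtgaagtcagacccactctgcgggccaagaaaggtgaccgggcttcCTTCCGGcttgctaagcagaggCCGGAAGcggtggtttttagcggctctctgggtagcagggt
SERPINB8 (chr18:63969831-63970130, plus strand, 2 AP-1 matches and 1 ETS match): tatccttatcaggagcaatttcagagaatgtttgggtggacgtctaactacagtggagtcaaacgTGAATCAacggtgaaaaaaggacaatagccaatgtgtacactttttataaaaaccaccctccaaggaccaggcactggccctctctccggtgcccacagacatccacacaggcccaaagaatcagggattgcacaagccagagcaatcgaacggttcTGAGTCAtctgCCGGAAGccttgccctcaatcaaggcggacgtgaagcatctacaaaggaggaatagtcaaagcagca

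The loops took in 736929 to 1472197 contacts per library over the whole table, and 8947 to 17796 of these fell in chromosome 18 loops. A loop was tested when it passed edgeR's filter on low counts, which 24132 of all loops (71.2%) and 327 of the 415 on chromosome 18 (78.8%) did. The other 88 were too sparse to test. Values below are normalized contacts, meaning contacts per 1000000 contacts in the tested loops of a library after edgeR's TMM scaling, and fold changes are on the log2 scale, moderated by a prior count of 2 that shrinks the change of sparse loops. A loop is called when its edgeR quasi-likelihood p-value, adjusted by Benjamini-Hochberg over all 24132 tested loops, is under 0.05. At 72 h, no difference larger than counting noise was found between replicates 3 and 4 (p = 0.367, chi-square over all tested loops), while every other pair of replicates of a time differed by more than that. They were counted as 1 sample in means and SDs, which leaves 3 samples there. In libraries of pooled cells, fewer cells with a loop and fewer contacts per cell cannot be told apart.

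The description of the chromosome as gene-poor held in the reference annotation. Chromosome 18 has 270 protein-coding genes, or 3.37 per Mb of the span between its first and last anchor. That density was the lowest of the 23 chromosomes with loops, against 6.77 per Mb over all of them. The loop density of chromosome 18 was also the lowest, at 5.18 per Mb. Of its 626 anchors, a protein-coding gene started or ended in 80 (12.8%), against 16.3% of all 43806 anchors, while 50% of its anchors lay on some part of a gene, near the 51.3% of all. Its loops were 50 to 3050 kb long, with a median of 380 kb against 440 kb in all loops.

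The description of its loops as falling held only in part. At 72 h, 57 of the 327 tested loops (17.4%) fell against 0 h, and percent called in that direction over all loops was 16.9, so the share that fell was near the background. The share that rose was the lower one: 31 loops (9.48%) rose, against 16.7% of all loops. Either way 88 (26.9%) were called, against 33.6% of all. The chromosome's median log2 fold change was -0.06, against 0.01 over all tested loops, and 58.1% of its loops had a negative value, against 49.0%. Scaling to each library's total count gave 40 rises (12.2%, against 19.3% of all loops) and 50 falls (15.3%, against 14%). TMM scaling over chromosome 18 loops alone gave 45 rises (13.8%, against 21.1%) and 41 falls (12.5%, against 11.9%), with a median of 0.01. The sign of the median thus depends on what the contacts are scaled to. The median of the chromosome stayed 0.075 and 0.078 below that of all loops under these scalings, against 0.072 in the fit described here. A change of scaling moves all loops nearly alike, so this gap could hardly change and supports nothing. With other sets of tested loops the gap moved. The chromosome's median minus that of all loops was -0.036 at a mean of at least 20 contacts, -0.029 with technical replicates as libraries and -0.153 with no filter.

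**Figure D1:**
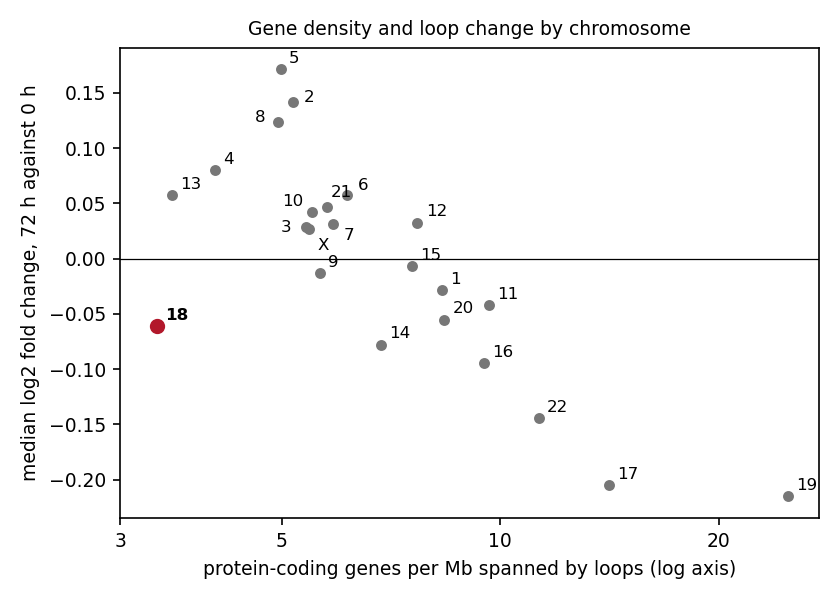
Median log2 fold change of tested loops at 72 h against 0 h (vertical axis) by protein-coding genes per Mb spanned by loops (horizontal log axis), 1 point per chromosome with its name beside it and no error drawn. Chromosome 18, in red, sits at 3.37 genes per Mb and -0.06, below the other chromosomes of low gene density, whereas chromosome 19, the densest at 24.9 genes per Mb, has the lowest median, -0.22.

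Set beside single chromosomes, chromosome 18 had the 6th lowest median of the 23 at 72 h. The gene-dense chromosomes 19 and 17 had medians of -0.22 and -0.20, with 35.4% and 30.7% of their loops fallen. Chromosomes of low gene density lay on the other side of 0: chromosome 13, with 3.53 genes per Mb, had a median of 0.06, chromosome 4, with 4.05, had 0.08, and chromosome 2, with 5.19, had 0.14. On chromosome 13, 10.7% of tested loops fell and 17.1% rose. No test was made of these differences, since the chromosome was picked on them.

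At 6 h, a comparison that was not used to pick the chromosome but shares its 0 h libraries, few loops had moved. Of the 327 tested, 17 (5.20%) were called, and percent called over all loops was 6.41. There were 6 rises (1.83%, against 2.34% of all loops) and 11 falls (3.36%, against 4.07%), and 77 loops (23.5%, against 20.3% of all tested loops) had an unadjusted p under 0.05. Total count scaling gave 10 rises (3.06%, against 3.19% of all loops) and 8 falls (2.45%, against 3.03%). Scaling on chromosome 18 alone gave 10 rises (3.06%, against 3%) and 7 falls (2.14%, against 2.68%). The median change was -0.04, the 2nd lowest of the 23 chromosomes, against 0.01 over all tested loops. Of the 11 loops that fell by 6 h, 7 were also called as fallen at 72 h, and of the 6 that rose, 1 was also called as risen. Both comparisons use the same 0 h libraries, which by itself favours such overlap. The overlap over all loops is not given here, so lasting change is not read from these counts. Without the 0 h replicate 1 the count of calls was 6 (1.78%, against 2.86% of all loops), and without the 6 h replicate 2 it was 10 (3.01%, against 3.53%).

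From 6 h to 72 h, 23 loops rose (7.03%, against 10.7% of all loops) and 33 fell (10.1%, against 9.81%), 56 in all (17.1%, against 20.5%), with a median of -0.04. Without the 6 h replicate 1 the count was 36 (10.8%, against 14.9% of all loops). Loops whose libraries did not overlap between 0 h and 6 h numbered 43 (13.1%, against 10.7% of all), those apart between 0 h and 72 h 96 (29.4%, against 34.7%), and those apart between 6 h and 72 h 77 (23.5%, against 25.9%). The 72 h libraries serve this comparison and the one used to pick the chromosome, so it is a description.

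The share of all loop contacts that lay in chromosome 18 loops moved by small steps. At 0 h the 4 libraries held 1.21%, 1.23%, 1.23% and 1.22%. At 6 h all 4 held 1.21%, and at 72 h they held 1.18%, 1.18%, 1.16% and 1.16%. Every 72 h library was below every library of the other times. The means were 1.22% ± 0.011 (SD, n = 4), 1.21% ± 0.0039 (SD, n = 4) and 1.17% ± 0.011 (SD, n = 3). Counting error alone gave Wilson 95% intervals such as 1.19% to 1.23% for the 0 h replicate 1. The 6 h mean was lower than the 0 h mean by 0.013 percentage points (two-sided exact permutation p = 0.0857, 0.171 after Benjamini-Hochberg over 4 shares compared, smallest possible p 0.0286). Within replicates 1 and 2 the difference was -0.0145 and within replicates 3 and 4 -0.0123 percentage points. Without the 0 h replicate 1 it was -0.0184, with an exact permutation p of 0.0286. The other comparisons that left out 1 library gave an exact permutation p of 0.0857 to 0.171, and none of these was adjusted. The 0 h libraries also served to pick the chromosome, which by itself favours a lower share at 6 h. These p-values are therefore no support for a fall.

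Loop length divided that share. Counted over loops longer than 200 kb, chromosome 18 held 1.48% of contacts at 0 h and 1.43% at 6 h, a difference of -0.0482 percentage points (two-sided exact permutation p = 0.0286, the smallest possible here, 0.114 after adjustment over the 4 shares). Its 4 libraries at 0 h ranged from 1.45% to 1.5%, those at 6 h from 1.41% to 1.44% and those at 72 h from 1.33% to 1.35%, with no overlap between the times. Among loops of 200 kb or less the means were 1.04% at 0 h and 1.03% at 6 h (exact permutation p = 0.429), and the 72 h libraries held 1.00% to 1.04%. Here too the 0 h libraries had served to pick the chromosome, so these p-values give no support.

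**Figure D2:**
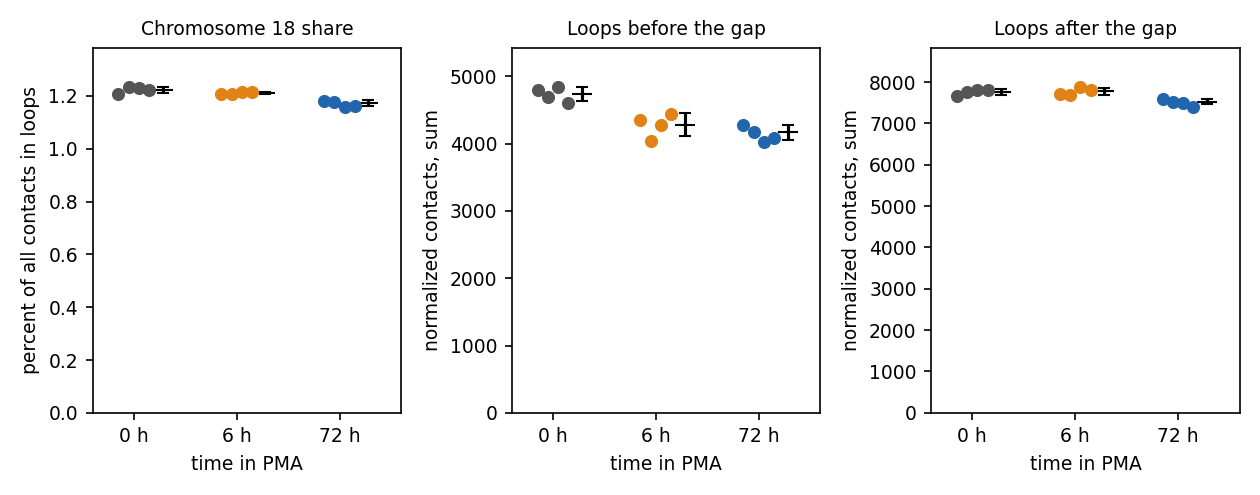
Points are the 12 libraries at each time in PMA, with mean and SD beside them (n = 4, 4 and 3, the 72 h replicates 3 and 4 counted once). From left to right the vertical axes are the chromosome 18 share of all loop contacts in percent, and the summed normalized contacts of loops before and after the widest stretch with no anchor. The loops before it drop between 0 h and 6 h, from 4736 to 4278, while those after it stay at 7761 and 7773 and are lower at 72 h.

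Along the chromosome the losses were uneven. The widest stretch with no anchor ran from 14960001 to 20940000, 5.98 Mb that include the centromere, and no loop crossed it. On its short-arm side lay 79 loops, of which 77 were tested, and on the other side 336, of which 250 were tested. The median length of tested loops was alike, 310 and 300 kb.

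Before the gap, 22 of the 77 tested loops (28.6%) had fallen at 72 h and 6 had risen, with a median change of -0.19. After it, 35 of the 250 (14%) had fallen and 25 had risen, with a median of -0.04. The background was 16.9% for falls and 16.7% for rises, as above. By 6 h the short-arm side had 6 falls (7.79%) and no rise, while the other side had 5 falls (2%) and 6 rises. Over all tested loops 4.07% fell and 2.34% rose by 6 h, so few rises are met in 77 loops anyway and their absence says little. Summed over its tested loops, the short-arm side held 4793, 4698, 4844 and 4611 normalized contacts in the 0 h libraries, 4347, 4043, 4275 and 4446 at 6 h, and 4277, 4166, 4025 and 4091 at 72 h. The 6 h libraries were all below the 0 h libraries, and the 6 h and 72 h ranges overlapped. The means were 4736 ± 103 (SD, n = 4), 4278 ± 172 (SD, n = 4) and 4167 ± 110 (SD, n = 3). On the other side they were 7761 ± 71.4, 7773 ± 92.3 and 7522 ± 63.9 for the same n, so there the difference came after 6 h. The sides were compared after their values had been seen, and no test was made.

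**Figure D3:**
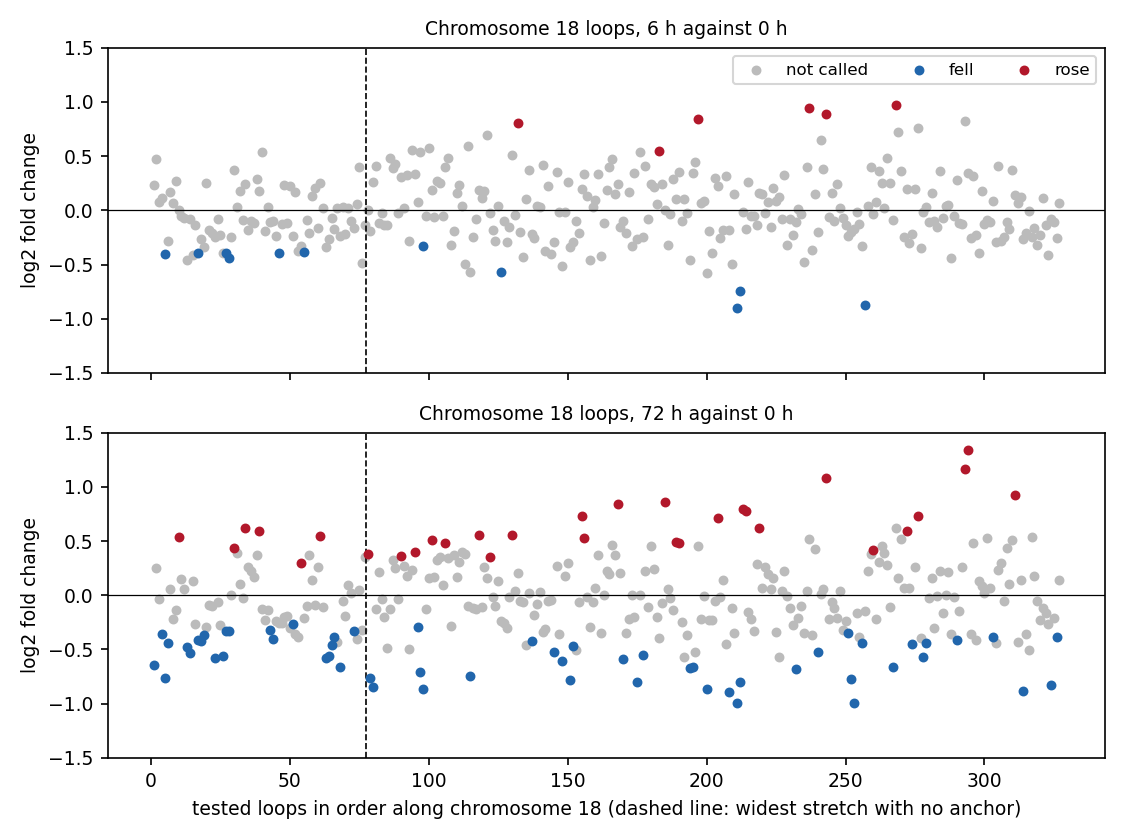
Log2 fold change of the 327 tested chromosome 18 loops (vertical axis) in their order along the chromosome (horizontal axis), at 6 h (upper panel) and 72 h (lower panel) against 0 h. Red points were called as risen, blue as fallen and grey not called, and the dashed line marks the widest stretch with no anchor. The 6 rises at 6 h all lie after the line, where 250 of the 327 tested loops are, so their place says little. At 72 h the 28 calls before it hold 22 falls.

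Cut into 10 Mb segments, the first, which covers the tip of the short arm, held 53 loops, all tested, and had 16 falls and 4 rises at 72 h, with a median of -0.22. Its sum was 3437 ± 71.7 (SD, n = 4) at 0 h, 3093 ± 138 (SD, n = 4) at 6 h and 2985 ± 87.9 (SD, n = 3) at 72 h. It has 4.10 protein-coding genes per Mb, more than the 2.90 to 3.90 of the next 7 segments. The third segment, just past the gap, had a positive median at both times, 0.16 at 6 h and 0.17 at 72 h, with 5 rises and 5 falls at 72 h. In segments 4 to 8 the 72 h medians ran from -0.11 to -0.0014, and falls outnumbered rises in each. The last segment held 2 loops.

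The loop with the most contacts on the chromosome was loop30140 (anchors chr18:3590001-3600000 and chr18:3660001-3670000, 70 kb), with both anchors inside DLGAP1, a gene for a postsynaptic scaffold protein. It had 278, 221, 299 and 292 normalized contacts at 0 h, 200, 162, 233 and 236 at 6 h, and 252, 203, 198 and 209 at 72 h. The 6 h libraries were mostly the lower ones, but 1 of the 0 h libraries fell within their range. The change at 6 h was -0.40 (SE 0.09, edgeR adjusted p = 0.00263), and without the 6 h replicate 2 the adjusted p was 0.0513. At 72 h it was -0.33. A neighbour inside the same gene, loop30141 (anchors chr18:3700001-3710000 and chr18:3770001-3780000), fell by 0.44 at 6 h (edgeR adjusted p = 0.0154, 0.180 without the 0 h replicate 1). By contrast loop30139, a 60 kb loop also inside DLGAP1, had means of 163 ± 11.1 (n = 4), 156 ± 18.5 (n = 4) and 158 ± 15.5 (n = 3), and changes of -0.08 and -0.06.

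The far anchor of loop30140 had 5 tested loops, more than any other anchor of the chromosome, although anchors at 62180001 and 74650001 also carry 5 loops when untested ones are counted. Of all 626 anchors, 472 carried 1 loop. The longest of the 5, loop30118, reached 3050 kb towards the telomere, to chr18:610001-620000, which holds a start of CLUL1, and enclosed 13 protein-coding genes, among them TYMS (thymidylate synthase), NDC80 (a kinetochore protein), SMCHD1 (a chromatin protein of X inactivation), YES1 and TGIF1. It had 56.5, 46.5, 66.5 and 51.2 normalized contacts at 0 h, 41.2, 49.5, 56.6 and 62.7 at 6 h, and 37.2, 33.1, 44.7 and 34.8 at 72 h. All 72 h libraries were below all 0 h libraries, and the change was -0.53 at 72 h and -0.08 at 6 h (edgeR adjusted p = 0.815). The 380 kb loop30136 had a mean of 144 ± 21.1 (SD, n = 4) at 0 h and 96.6 ± 5.39 (SD, n = 3) at 72 h, a change of -0.57. Its 0 h replicate 1 was at 175, above the 130 to 137 of the other 0 h libraries. The remaining loops of the anchor, loop30132 and loop30138, were not called at either time, with 72 h changes of -0.29 and -0.27.

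Nearer the telomere, loop30120 (anchors chr18:740001-750000 and chr18:820001-830000, 80 kb) starts inside YES1, a Src family tyrosine kinase. Its libraries held 185, 173, 183 and 147 normalized contacts at 0 h, 139, 104, 127 and 152 at 6 h, and 109, 90.4, 99.8 and 104 at 72 h. The 72 h libraries were all below the 0 h ones, and the 6 h range overlapped both. The change was -0.41 at 6 h (SE 0.10, edgeR adjusted p = 0.00627, and 0.082 without the 6 h replicate 2) and -0.76 at 72 h. Both MYL12A loops, whose shared anchor holds the promoter printed above, lie in the same segment; MYL12A encodes a regulatory light chain of non-muscle myosin, which drives platelet contraction. The shorter, loop30133, had 116, 118, 129 and 108 normalized contacts at 0 h, 107, 90.7, 83.5 and 85.7 at 6 h and 88.5, 90.4, 101 and 83.9 at 72 h. Its 6 h and 72 h libraries were all below the 0 h ones, and its change of -0.34 at 6 h missed the threshold (edgeR adjusted p = 0.0521). At 72 h it was -0.37, and in loop30131 -0.42.

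Past the gap, the loop with the next most contacts, loop30217 (anchors chr18:23510001-23520000 and chr18:23580001-23590000, 70 kb), runs across NPC1 to the anchor that holds its promoter, and its other anchor lies on parts of NPC1 and of RMC1, a gene for a lysosome-associated regulator. It had 238, 215, 225 and 238 normalized contacts at 0 h, 172, 157, 194 and 212 at 6 h, and 126, 133, 123 and 118 at 72 h. The times did not overlap. In raw contacts the libraries held 118 to 328. The change was -0.33 at 6 h (SE 0.09, edgeR adjusted p = 0.0176) and -0.87 at 72 h. The 6 h call was kept in 9 of 12 fits that left out 1 library, with the highest adjusted p, 0.105, without the 6 h replicate 2, and was lost with an offset for loop length (adjusted p = 0.119). A longer loop enclosing NPC1, loop30213 (470 kb, to the end of ANKRD29), went the other way at 6 h: means were 19.9 ± 0.41 (n = 4), 30.1 ± 4.27 (n = 4) and 10.6 ± 4.80 (n = 3). Its change was 0.54 at 6 h (edgeR adjusted p = 0.0878) and -1.25 from 6 h to 72 h, the largest fall of that comparison among the called loops of the chromosome.

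The call with the lowest adjusted p at 6 h was at SKA1, which encodes a subunit of the spindle and kinetochore-associated complex. In loop30362 (anchors chr18:50370001-50380000 and chr18:50420001-50430000, 50 kb) the SKA1 promoter lies in the first anchor. The libraries held 71.0, 49.4, 50.2 and 60.3 normalized contacts at 0 h, 32.4, 30.8, 43.9 and 32.6 at 6 h, and 32.7, 36.1, 35.4 and 28.6 at 72 h. Every treated library was below every 0 h library, and 6 h and 72 h overlapped. The change was -0.75 at 6 h (SE 0.16, edgeR adjusted p = 0.000593) and -0.80 at 72 h, and the 6 h call was kept in all 12 fits that left out 1 library, with adjusted p up to 0.0305.

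The next bin, chr18:50430001-50440000, is the far anchor of 3 longer tested loops that enclose SKA1. The 160 kb loop30361 starts inside MBD1, a methyl-CpG binding protein gene, and had 22.5, 20.9, 21.3 and 25.0 normalized contacts at 0 h, 12.8, 11.2, 9.91 and 9.65 at 6 h, and 7.96, 12.1, 13.5 and 8.03 at 72 h. Again all treated libraries were below the 0 h ones. The change was -0.90 at 6 h (SE 0.27, edgeR adjusted p = 0.00923) and -1.0 at 72 h, the largest fall there, and the 6 h call was kept in all 12 fits that left out 1 library. Its raw contacts were few, 7 to 31 per library. The 400 kb loop30357, from MYO5B (a myosin motor gene), had means of 18.7 ± 4.09 (n = 4), 15.9 ± 3.51 (n = 4) and 8.44 ± 1.26 (n = 3), so most of its difference came after 6 h. The change was -0.18 at 6 h (edgeR adjusted p = 0.727), and by 72 h it was -0.89. The 560 kb loop30356 was not called at either time, with changes of 0.31 at 6 h (edgeR adjusted p = 0.462) and, by 72 h, -0.45.

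Just beyond that anchor, contacts rose. In loop30364 (anchors chr18:50660001-50670000 and chr18:50780001-50790000, 120 kb), which starts inside MAPK4, an atypical MAP kinase gene, the libraries held 42.0, 50.3, 32.6 and 34.1 normalized contacts at 0 h, 37.3, 32.7, 29.7 and 43.4 at 6 h, and 76.1, 60.2, 75.9 and 71.4 at 72 h. The 72 h libraries stood above all others, and 0 h and 6 h overlapped. The change was -0.17 at 6 h (edgeR adjusted p = 0.618), 0.78 at 72 h against 0 h and 0.95 against 6 h. The 280 kb loop30363, which shares its far anchor, rose by 0.79 at 72 h, from 20.9 to 37.4 in means. Loops that fell and loops that rose lay side by side here.

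**Figure D4:**
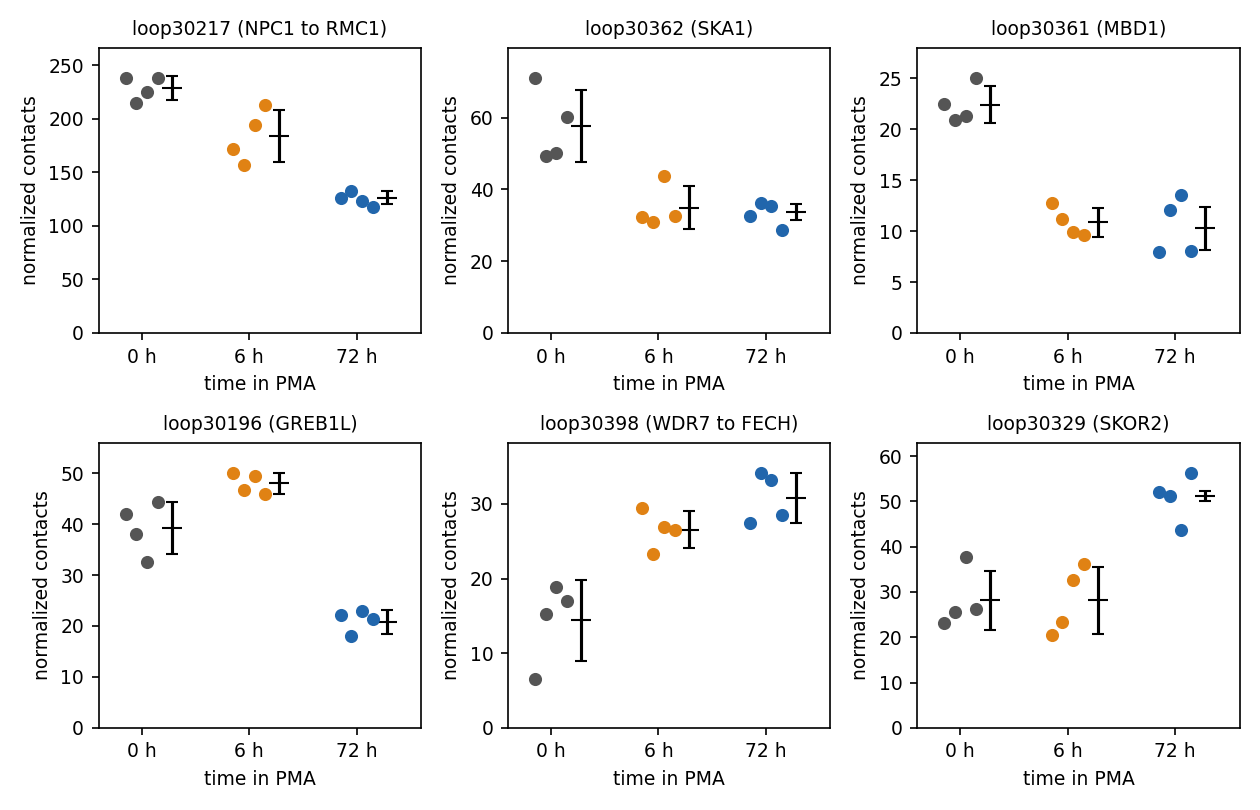
Normalized contacts of 6 chromosome 18 loops (vertical axes from 0) in the 12 libraries by time in PMA, with mean and SD beside the points (n = 4, 4 and 3, the 72 h replicates 3 and 4 counted once). The SKA1 and MBD1 loops are lower from 6 h on, the NPC1 loop is lower at each later time, the GREB1L loop is lower only at 72 h, the WDR7 to FECH loop is higher from 6 h on and the SKOR2 loop only at 72 h.

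The single loop called as risen at both times was loop30398 (anchors chr18:56740001-56750000 and chr18:57550001-57560000, 810 kb). It runs from WDR7 to FECH, the gene for ferrochelatase, the last enzyme of haem synthesis, and encloses ONECUT2. It had 6.52, 15.2, 18.8 and 17.1 normalized contacts at 0 h, 29.4, 23.4, 26.9 and 26.5 at 6 h, and 27.4, 34.1, 33.3 and 28.6 at 72 h. No treated library overlapped the 0 h range. The change was 0.88 at 6 h (SE 0.24, edgeR adjusted p = 0.00558) and 1.08 at 72 h. The 0 h replicate 1 was the lowest library, and without it the 6 h adjusted p was 0.154.

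The other 5 rises at 6 h were in loops of 190 to 730 kb, most of them with few contacts. In loop30424, which encloses PMAIP1 (the pro-apoptotic protein NOXA) and MC4R, the means were 6.89 ± 3.21 (n = 4), 15.9 ± 4.54 (n = 4) and 12.1 ± 2.73 (n = 3), a change of 0.97 at 6 h (edgeR adjusted p = 0.0191), with 2 to 19 raw contacts per library. In loop30395, with no protein-coding gene at or between its anchors, the change was 0.94 (edgeR adjusted p = 0.0146). In loop30341, which encloses SMAD7, an inhibitor of TGF-beta signalling, it was 0.84 (edgeR adjusted p = 0.0206). Each of these calls was lost when 1 of some libraries was left out: the highest adjusted p was 0.087 for loop30424 without the 0 h replicate 3, 0.126 for loop30395 without the 0 h replicate 1 and 0.0646 for loop30341 without the 6 h replicate 4. The remaining rises were loop30261, from CCDC178 (0.80), and loop30326, which encloses SKOR2 (0.55), the one with the most contacts. Both were kept in 7 of the 12 fits that left out 1 library, with adjusted p up to 0.107 without the 0 h replicate 3 and 0.112 without the 0 h replicate 1.

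Among the falls at 6 h, loop30252 was the third kept in all 12 fits that left out 1 library, besides the SKA1 and MBD1 loops. It spans 90 kb from the end of B4GALT6 (a lactosylceramide synthase) and had 46.4, 57.9, 47.7 and 54.6 normalized contacts at 0 h, 34.3, 37.4, 31.1 and 31.4 at 6 h, and 52.2, 47.2, 35.4 and 37.5 at 72 h. The 6 h libraries were below all 0 h libraries, and the 72 h libraries overlapped both the 0 h and the 6 h range. The change was -0.57 at 6 h (SE 0.17, edgeR adjusted p = 0.0154), a call lost with DESeq2 (adjusted p = 0.0727) and with the loop length offset (0.06). At 72 h it was -0.24. In loop30413, from NEDD4L (a ubiquitin ligase gene) and enclosing MALT1 (an NF-kappaB signalling protease), means were 16.2 ± 2.14 (n = 4), 8.01 ± 0.77 (n = 4) and 13.7 ± 3.44 (n = 3). Its change was -0.87 at 6 h (edgeR adjusted p = 0.0296, and 0.0854 without the 6 h replicate 2) and -0.15 at 72 h. The 3 other falls at 6 h not yet named, loop30130 between LPIN2 and MYOM1, and loop30160 and loop30169 with anchors outside protein-coding genes, had changes of -0.38 to -0.40.

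Of the 6 largest rises at 72 h, 1 was the WDR7 to FECH loop, 3 were in loops over 1000 kb with few contacts and 2 in shorter loops. In loop30466 (anchors chr18:68840001-68850000 and chr18:70080001-70090000, 1240 kb), from CCDC102B to RTTN and enclosing CD226 (an adhesion receptor of lymphocytes and platelets) and DOK6, the libraries held 5.79, 2.85, 5.02 and 2.27 normalized contacts at 0 h, 1.96, 5.61, 5.66 and 10.9 at 6 h, and 15.9, 18.1, 8.32 and 11.6 at 72 h. The 72 h libraries were above every 0 h library but overlapped 6 h. In raw contacts these are 2 to 18 per library. The change was 1.34 at 72 h. The 1440 kb loop30459 rose by 1.16 and the 1070 kb loop30506, which encloses TSHZ1, by 0.92, a call lost without the 0 h replicate 1 or the 72 h replicate 3. In loop30329 (530 kb), from SKOR2 (a SMAD-binding corepressor gene), means were 28.1 ± 6.46 (n = 4), 28.2 ± 7.40 (n = 4) and 51.1 ± 1.1 (n = 3), a change of 0.00 at 6 h and 0.86 at 72 h. In loop30310 (110 kb), inside the urea transporter gene SLC14A2, they were 22.1 ± 2.99, 27.3 ± 10.3 and 41.0 ± 4.03 for the same n, a change of 0.84.

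The larger falls at 72 h, besides those at MBD1, MYO5B and NPC1, were in loop30408 around NEDD4L (-0.99), loop30514 towards MBP, the myelin basic protein gene (-0.88), and loop30348 towards DYM (-0.87). In loop30514 the means were 34.2 ± 4.01 (n = 4), 27.5 ± 3.45 (n = 4) and 17.3 ± 1.18 (n = 3), and no 72 h library reached the others. In loop30348 the 0 h and 72 h libraries overlapped, and its call was lost without the 0 h replicate 2. The loop30408 had 2 to 17 raw contacts per library, and its call was lost without the 72 h replicate 4. The high-contact loop30178 at IMPA2 (inositol monophosphatase) was at 154 ± 14.7 (n = 4) at 0 h, 148 ± 15.1 (n = 4) at 6 h and 114 ± 7.46 (n = 3) at 72 h, a change of -0.46.

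Some loops had their highest mean at 6 h, with no call there, and their lowest at 72 h. In loop30196 (anchors chr18:21490001-21500000 and chr18:21900001-21910000, 410 kb), from GREB1L and enclosing MIB1 (a Notch pathway ubiquitin ligase), the libraries held 42.0, 38.0, 32.6 and 44.3 normalized contacts at 0 h, 50, 46.7, 49.5 and 45.8 at 6 h, and 22.1, 18.1, 22.9 and 21.4 at 72 h. The times did not overlap. The change was 0.26 at 6 h (edgeR adjusted p = 0.337), -0.85 at 72 h against 0 h and -1.11 against 6 h. In loop30346, which encloses SMAD7, means were 28.8 ± 3.62 (n = 4), 36.4 ± 6.42 (n = 4) and 17.5 ± 0.96 (n = 3), with 0.34 at 6 h (edgeR adjusted p = 0.260) and -1.0 from 6 h to 72 h. The opposite order was seen in loop30230, from TAF4B to the start of KCTD1, whose means were 28.8 ± 5.01 (n = 4), 20.4 ± 3.63 (n = 4) and 39.9 ± 2.28 (n = 3).

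Loop length went with the direction of change on chromosome 18, and with a difference from other chromosomes in long loops. Of 33 tested loops of up to 100 kb, 15 (45.5%) had fallen at 72 h and 1 had risen, with a median of -0.27, against 36.2% fallen and a median of -0.18 on other chromosomes. The same 33 loops held 8 of the 11 falls at 6 h (24.2% of the class fell), and on other chromosomes loops of this length held 46.9% of the falls (13.9% of the class fell). Loops over 100 to 200 kb had medians of -0.07 on chromosome 18 and -0.09 elsewhere. Above 200 kb chromosome 18 lay lower: -0.10 against -0.01 for 200 to 400 kb, 0.02 against 0.11 for 400 to 800 kb, and 0.11 against 0.33 for 800 to 1600 kb, where 4 of 20 loops (20%) rose against 29.0% of the rest. Over 1600 kb it had 3 tested loops: loop30117 and loop30118, which both join CLUL1 to DLGAP1, fell at 72 h, the call of loop30117 being lost without the 72 h replicate 1, without the 72 h replicate 2 and with DESeq2, and the 1680 kb loop30123 rose by 0.53, whereas the 290 loops of this length elsewhere had a median of 0.57 with 2 falls. No test was made of these differences in the 72 h comparison.

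**Figure D5:**
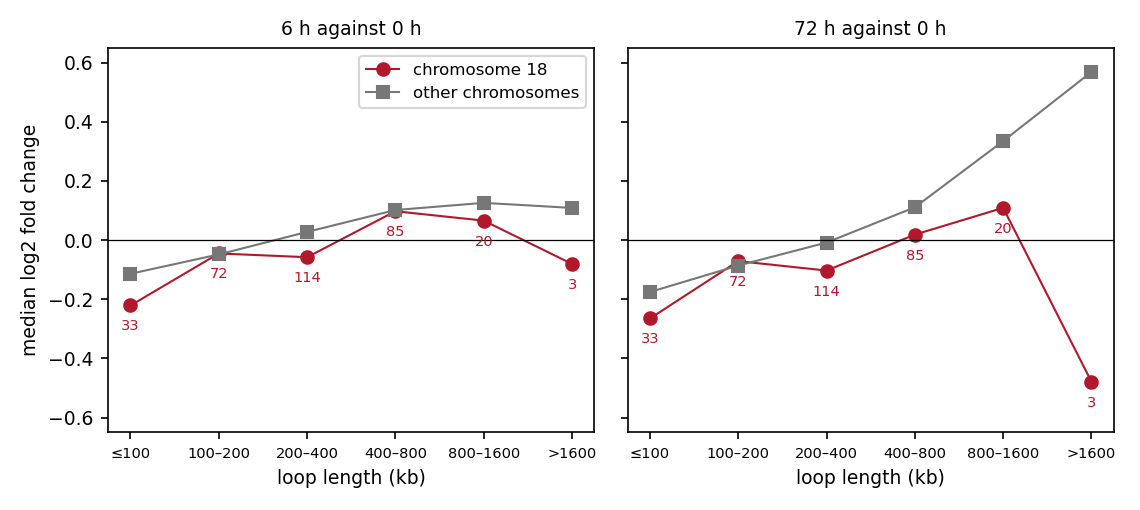
Median log2 fold change (vertical axis) of tested loops by loop length class in kb (horizontal axis), at 6 h (left) and 72 h (right) against 0 h, for chromosome 18 (red circles, number of loops printed beside each) and all other chromosomes (grey squares). At 72 h chromosome 18 is at or below the others in every class but 100 to 200 kb, and the class over 1600 kb, with 3 loops, is at -0.48 against 0.57.

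Loops with a gene end at an anchor had a somewhat lower median than those without. In 81 tested loops a protein-coding gene started or ended at an anchor, and of these 17 (21%) had fallen at 72 h and 6 had risen, with a median of -0.11. Of the 246 without, 40 (16.3%) had fallen and 25 had risen, with a median of -0.06. At 6 h the falls were 3 (3.7%) and 8 (3.25%), near the 4.07% of all tested loops. The 6 rises were all in loops without a gene end, which are 246 of the 327 tested, so that count says little. The loops with a gene end were shorter, with a median of 250 kb against 310 kb. The part of length in their lower median was not tested. Other splits by gene did not all go the same way. Loops with no part of a gene in either anchor had medians of -0.077 at 6 h and -0.042 at 72 h. Those with a gene end had -0.055 and -0.11. At 72 h, 19.6% of loops with no whole gene between the anchors had fallen, against 15.9% of those with 1 or more. The medians of these were 0.0 and -0.115. Among 200 pairs of tested loops that shared an anchor, both were called at 72 h in 17, and in 13 of these in the same direction. With 26.9% of the chromosome's tested loops called at 72 h, some such pairs arise anyway. A loop can enter more than 1 pair, and no count over all loops is given here, so joint change is not read from these pairs.

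The gene lists are read against 33.6% of all tested loops called at 72 h and 16.9% fallen, and each holds few loops. In the list for platelet, megakaryocyte and erythroid function, 2 of 10 genes had an end in an anchor of a tested loop, MYL12A and RAB31, and 2 of their 3 loops fell at 72 h, both those of MYL12A. In the list of housekeeping and cell division genes, the loop of SKA1 fell at both times and loop30212, at the DNA repair gene RBBP8, rose by 0.40 at 72 h, a call lost in 6 of the 12 fits that left out 1 library (without the 0 h replicates 1, 3 or 4 or the 72 h replicates 1, 2 or 3), with DESeq2 and with the loop length offset, while the loop of NARS1 was not called. In the list of developmental transcription factors, none of the 3 loops, at GATA6, MBD2 and TCF4, was called against 0 h. The GATA6 loop, loop30203 (150 kb), had means of 47.9 ± 6.72 (n = 4), 64.8 ± 3.70 (n = 4) and 44.3 ± 1.20 (n = 3). Its change was 0.41 at 6 h (edgeR adjusted p = 0.0596), and it was called as fallen from 6 h to 72 h.

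In the remaining lists no loop was called in any of the 3 comparisons. In the list for apoptosis and immune signalling, 9 loops lay at BCL2, PHLPP1, NFATC1, SOCS6 and TNFRSF11A, with medians of 0.04 at 6 h and -0.001 at 72 h. The BCL2 loop with the most contacts, loop30448, had means of 41.3 ± 10.8 (n = 4), 42.9 ± 8.07 (n = 4) and 41.0 ± 0.62 (n = 3). The SERPINB cluster had loop30454 and loop30455, which ends at the SERPINB8 promoter printed above; the latter had means of 14 ± 2.74 (n = 4), 12.5 ± 4.16 (n = 4) and 18.2 ± 2.15 (n = 3), and the times overlapped. The desmosomal cadherins had loop30244 from DSC2 to DSG2, with changes of 0.11 at 6 h and -0.11 at 72 h. The TGF-beta and BMP list had loop30134 at TGIF1 and loop30327 at SKOR2, with 72 h changes of -0.09 and -0.20. Counting any part of a gene over an anchor, in place of its ends, brought in further loops, among them those of YES1, SKOR2, MBD1 and FECH named above. Another was loop30242 at DSC3, which rose by 0.55 at 72 h and is 1 of 5 desmosomal cadherin loops under that rule. At 72 h the platelet list then had 3 falls and 1 rise in 8 loops, and the transcription factor list 2 falls and 0 rises in 15. The apoptosis list had 1 fall and 0 rises in 12, and the TGF-beta list 0 falls and 1 rise in 8.

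The authors' deposited table carries their own classes for these loops. In the authors' deposited table, 6 chromosome 18 loops (1.45%) are gained, 6 (1.45%) lost and 403 static, against 2.95% gained and 1.48% lost among all 33914 loops. The lost loops in the authors' deposited table are loop30120 at YES1, loop30196, loop30217 at NPC1, loop30285, loop30362 at SKA1 and loop30514, and the gained ones are loop30287, loop30310, loop30329, loop30363, loop30364 and loop30398. All 12 were also called here in the same direction at 72 h. The log2 fold change at 72 h in the authors' deposited table was -0.82 for the NPC1 loop and 1.01 for the WDR7 to FECH loop. These classes come from the same libraries and are no independent evidence.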

How the data were processed

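In situ Hi-C contacts were counted by the authors in a list of loops, and the deposited table holds raw counts for 30 columns of technical replicates, which were added up to 12 libraries. Per the submitters' processing notes, the build was hg38 and the tools included Juicer 1.5.6 and DESeq2; the loop caller is not given in the sources used here. The authors' log2 fold changes and adjusted p-values, also in the deposited table, were only quoted. All loops were fitted together with edgeR 4.0.16 (R 4.3.3), using TMM, filterByExpr (minimum count 10) and the quasi-likelihood test with 3 time points in 1 model, adjusted by Benjamini-Hochberg over 24132 tested loops, threshold 0.05. Tested on simulated data for 6 h against 0 h over 23549 loops, 200 of them changed, the fit recovered 75% of 2-fold and 19% of 1.5-fold changes with 4 false calls. The simulation gave every loop the same preset spread, which was not estimated from these libraries, so recovery and false calls in the real data can differ. DESeq2 1.42.0 was an alternative. The members and gene lists were chosen with earlier results of these data known.

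Loops were named by rule: the 6 largest called rises and falls at 72 h against 0 h, 4 at 6 h against 0 h and 3 at 72 h against 6 h, the 5 with most contacts, the 2 longest, those of the busiest anchor, and at most 2 per gene list. Other loops were named after their values were seen: all further calls at 6 h, the loops of the authors' classes and loop30123. Genes come from RefSeq (GRCh38.p14). A gene end counts as at an anchor when it lies in the 10 kb bin. Replicate numbers are shared between times, but same-numbered libraries deviated together only weakly (correlations 0.0146 to 0.124), so the numbers were not taken as pairs. Depth was 736929 to 1472197 contacts per library. Intervals cover counting error only.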

Additional observations from a re-analysis of the deposited data

Results flagged for a closer look

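Single libraries stood apart from the other 3 of their time in 5 of 112 groups of 4 examined, where chance gives about 1 in 20, or 5.6. The 0 h replicate 1 held 175 normalized contacts in loop30136, against 130 to 137 in the others. The 6 h replicate 1 held 97.1 in loop30138, against 69.3 to 72.9. The 6 h replicate 2 held 128 in loop30139, against 162 to 167. The 6 h replicate 3 held 43.9 in the SKA1 loop, loop30362, against 30.8 to 32.6. Summed over all tested chromosome 18 loops, the 0 h replicate 3 held 12663, against 12422 to 12458.

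In a pair of loops the change by 6 h and the change after it were both called and went opposite ways. In loop30326, which encloses SKOR2, the mean rose from 31.7 ± 2.66 (n = 4) to 47.6 ± 4.63 (n = 4) by 6 h, and the change from there to 72 h was -0.95 on the log2 scale. Its 6 h call was kept in 7 of the 12 fits that left out 1 library, with adjusted p up to 0.112 without the 0 h replicate 1. In loop30413, from NEDD4L, the fall by 6 h was followed by a change of 0.72. Its 6 h call was also kept in 7 of 12, with adjusted p up to 0.0854 without the 6 h replicate 2.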

How the results depend on the processing

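Across the alternatives no called direction reversed among the loops named by rule, but the chromosome's counts and medians moved. For 6 h against 0 h the count of called chromosome 18 loops, 17 in the fit reported, was 3 with DESeq2, 7 within replicates 1 and 2, 0 within replicates 3 and 4 (edgeR, where 0.916% of all loops were called), 5 at an adjusted p under 0.01 and 8 at a fold of at least 1.5. For 72 h against 0 h, 88 became 46, 55, 36, 47 and 39 in that order, and for 72 h against 6 h, 56 became 19, 22, 24, 23 and 24. The share called over all loops fell as well. With DESeq2, within replicates 1 and 2 and within replicates 3 and 4, it was 1.82%, 2.09% and 0.916% for 6 h against 0 h. For 72 h against 0 h it was 20.6%, 19.7% and 17.1%, and for 72 h against 6 h 8.2%, 9.53% and 7.27%. On chromosome 18 the shares were 0.917%, 2.07% and 0%, then 14.1%, 16.3% and 11.4%, then 5.81%, 6.51% and 7.59%. Leaving out 1 library gave 6 to 18, 69 to 92 and 36 to 57 calls. At 6 h DESeq2 gave no adjusted p for loop30261, loop30341, loop30361, loop30395, loop30398, loop30413 and loop30424. All of these were called in the fit reported, and DESeq2 did not judge them.

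The median at 6 h against 0 h, as log2, was 0.00606 with total count scaling, -0.0525 with no filter, -0.0149 at a mean of at least 20 contacts, 0.00456 with scaling on chromosome 18 alone, -0.0228 within replicates 1 and 2, -0.0138 with technical replicates as libraries, -0.0456 with the 72 h replicates 3 and 4 summed, and -0.0530 to -0.0281 with 1 library left out. At 72 h against 0 h it was -0.0141 with total count scaling, -0.0750 with DESeq2, -0.117 with no filter, -0.0426 at a mean of at least 20, -0.103 with a loop length offset, 0.0121 with scaling on chromosome 18 alone, -0.0779 within replicates 3 and 4, -0.0390 with technical replicates, -0.0715 with replicates summed, and -0.0929 to -0.0707 with 1 library left out. At 72 h against 6 h it was -0.0316 with total count scaling, -0.0524 with DESeq2, -0.0885 with no filter, -0.00821 at a mean of at least 20, -0.000809 with scaling on chromosome 18 alone, -0.0580 within replicates 3 and 4, -0.00312 with technical replicates, and -0.0659 to -0.0254 with 1 library left out. The cause was not tested.

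The chromosome's share of contacts differed at 6 h by -0.0482 percentage points over loops above 200 kb and by -0.0184 to -0.00986 with 1 library left out. At 72 h against 0 h the difference, -0.0511, was -0.0374 over tested loops, -0.00912 up to 200 kb, -0.134 above 200 kb and, within replicates 3 and 4, -0.0660. For 72 h set against 6 h, -0.0377 became -0.0271, -0.00231, -0.0853, -0.0280 within replicates 1 and 2 and -0.0538 within replicates 3 and 4.

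With the replicate number as a block, 25 loops (7.65%, against 8.03% of all loops) were called at 6 h. At 72 h, 92 (28.1%, against 35.5%) were called against 0 h and 63 (19.3%, against 22.7%) against 6 h. The replicate numbers share little beyond a label, however. Over the alternatives, the called loops named by rule no longer passed the threshold in 35 of 184 values at 6 h against 0 h (8 loops), 33 of 532 at 72 h against 0 h (22 loops) and 5 of 145 at 72 h against 6 h (6 loops). Settings that gave a loop no adjusted p are left out of these totals. Depth limits loops with few contacts, such as loop30466 with 2 to 18 raw contacts per library.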
